A study of Saccharomyces cerevisiae with 18 samples.

Results

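The genes described here make nicotinamide adenine dinucleotide (NAD+) in *Saccharomyces cerevisiae*. They are *BNA2*, *BNA4*, *BNA5*, *BNA1* and *BNA6* of the de novo pathway, *PNC1*, *NPT1* and *NRK1* of salvage, and the adenylyltransferase genes *NMA1* and *NMA2*. They were chosen by name, and all 10 were found among the 5698 yeast genes measured, each with 1 probe set that no other gene shares. No filter on low signal was used, so that all 10 were tested in every comparison, and their lowest signal lay 3.34 log2 units above the background of its array.

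Transcripts were hybridized to 12 Affymetrix yeast arrays, 3 biological replicates for each of 4 groups. These were W303-Δ*sky1* and W303 cells after 4 h with 600 µM cisplatin, and W303-Δ*sky1* and W303 cells without cisplatin. The medium was complete synthetic medium (SD), and the control cultures received the solvent dimethyl sulfoxide (DMSO). Cisplatin is a platinum drug that binds DNA, and *SKY1*, deleted in W303-Δ*sky1*, encodes a protein kinase whose loss makes yeast more resistant to it. Both strains have the *MATa* background of W303, with the alleles *trp1-100* and *ura3-52* beside *can1-100* and *ade2-1*, a mutant allele of *leu2* and, in the methods of the study, one of *his3*. With *trp1-100*, W303 depends on tryptophan from the medium. The marker used to delete *SKY1* is not stated, so the same was not established for W303-Δ*sky1*. Whether W303-Δ*sky1* stands for 1 clone is not stated.

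The values are log2 signals from robust multi-array average (RMA) normalization, run separately for each of the 3 comparisons, which gives 3 tables of 6 arrays. The W303 arrays stand in 2 tables each, so that the comparisons share arrays, and their results are not independent of each other. Median signals of the arrays lay between 6.83 and 7.00, and the background, the 95th percentile of the *Schizosaccharomyces pombe* probe sets on the same array, lay between 1.24 and 1.35. *SKY1* itself read between 0.54 and 1.43 on the 6 W303-Δ*sky1* arrays, against 7.98 to 8.18 on the W303 arrays, as the labels of the strains require. An array measures the share of a transcript in the labelled RNA, so that fewer transcripts per cell and a change in the total RNA of the cell cannot be told apart.

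Yeast makes NAD+ de novo from tryptophan through the kynurenine pathway, and it recovers NAD+ from nicotinamide, nicotinic acid and nicotinamide riboside. The branches meet at an adenylyltransferase step, which joins a mononucleotide to the adenylate moiety of ATP. The de novo genes are known to be repressed by the NAD+-dependent deacetylase Hst1 in a complex with Sum1 and Rfm1, and the deposited gene titles of all 5 de novo members name Hst1p. Such a mention was found in the titles of 8 genes in all, the others being *HST1*, *LOH1* and *RFM1*. The deposited process annotation gives an NAD term to 9 of the 10 genes, *PNC1* being the exception, and to 4 other genes, *BNA7*, *PNP1*, *QNS1* and *URH1*.

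In untreated W303-Δ*sky1*, 8 of the 10 genes had a higher signal than in untreated W303 and 0 a lower one, a gene being called where limma gave p under 0.05 after Benjamini-Hochberg adjustment across the 5698 genes. Over all genes, 24.9% were called higher and 27.4% lower in that comparison. *PNC1* and *NPT1* did not pass. For 8 genes all W303-Δ*sky1* arrays lay above all W303 arrays and for 0 below them, beside 29.5% and 32.5% of all genes. The 10 log2 differences ran between -0.00 and 0.96 with a median of 0.46, where the median over all genes was -0.02. Each of the 5 de novo genes passed, with a median difference of 0.62. The call of 1 of them, *BNA6*, was lost with the replicate number as a block (adjusted p = 0.0578), over all probe sets (0.141) and with any 1 array left out, which leaves 7 of the 10 genes. At the fold threshold of the study (1.6-fold or more with p under 0.01 before adjustment, asked here on top of the call), 1 gene was left, *BNA5*, where 4.93% of all genes were higher and 5.28% lower.

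Between the strains under cisplatin, 7 of the 10 genes were higher in W303-Δ*sky1*, beside 32.8% of all genes, and 1, *NPT1*, was lower, beside 37.8%. *BNA2* and *NRK1* did not pass. The groups did not overlap for 7 genes that were higher and 1 that was lower, beside 34.7% and 39.2% of all genes. The median of the 10 differences was 0.37, and the range from -0.71 to 1.48 was wider than between the untreated strains. The median over all genes was -0.03. Their spread was wider too, with a median size regardless of sign of 0.33, against 0.25 between the untreated strains. Past 1.6-fold were *BNA4* and *BNA5* as higher, beside 8.78% of all genes, and *NPT1* as lower, beside 11.2%.

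Cisplatin in W303 moved the genes in both directions. *BNA2*, *BNA6* and *NPT1* rose, 3 of 10 where 13.2% of all genes rose, and *BNA4*, *BNA1*, *PNC1* and *NMA1* fell, 4 of 10 where 15.3% fell. *BNA5*, *NRK1* and *NMA2* did not pass. Treated and untreated arrays did not overlap for 4 genes that were higher and 4 that were lower, beside 22.6% and 23.9% of all genes. The differences lay between -0.30 and 0.37, with a median of -0.04 against -0.00 over all genes. None of the 10 reached 1.6-fold, 1.58% of all genes being higher and 1.53% lower at that threshold. With limma fitted and adjusted over all probe sets of the array in place of the yeast genes, 1 gene was higher and 2 were lower. The share of all genes called in that fit was not counted, so this drop is not read as particular to the 10 genes.

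**Figure D1:**
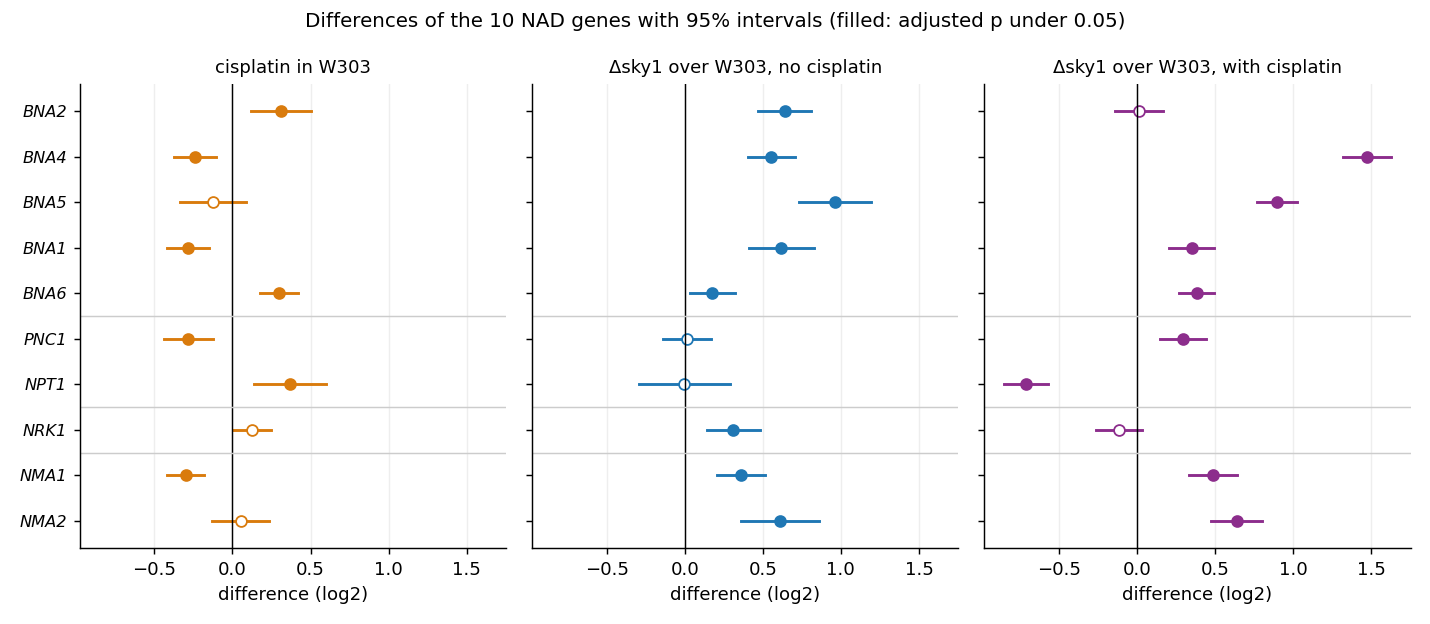
Log2 differences of the 10 genes (points, horizontal axis) with 95% intervals (lines) in the 3 comparisons, filled where the adjusted p from limma was under 0.05. Differences in the middle panel reach 0.96 and none is below 0 beyond its interval, whereas the right panel spreads from -0.71 for *NPT1* to 1.48 for *BNA4*.

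*BNA2* (YJR078W) encodes the dioxygenase that opens the indole ring of tryptophan at the head of the de novo pathway. Its signal was 7.88, 7.83 and 7.78 in untreated W303-Δ*sky1*, against 7.30, 7.18 and 7.09 in untreated W303. All deletion arrays lay above all W303 arrays, by 0.64 ± 0.072 log2 units (standard error, 1.56-fold; limma, adjusted p = 0.000288). With cisplatin the W303 arrays read 7.71, 7.58 and 7.51, against 7.43, 7.21 and 7.23 without it. The treated arrays were again all higher, with a difference of 0.31 ± 0.083 (adjusted p = 0.0272). Under cisplatin the strains overlapped, at 7.67, 7.63 and 7.62 in W303-Δ*sky1* against 7.75, 7.61 and 7.52 in W303. That difference was 0.01, with a 95% interval from -0.14 to 0.17 (adjusted p = 0.866). The call with cisplatin in W303 was lost over all probe sets (adjusted p = 0.075) and without W303 untreated replicate 2 or 3 or W303 cisplatin replicate 1 or 2, with an adjusted p of up to 0.095.

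*BNA4* (YBL098W), the gene of kynurenine 3-mono-oxygenase, showed the largest difference of the 10 genes. Under cisplatin it read 6.78, 6.92 and 6.97 in W303-Δ*sky1*, against 5.49, 5.40 and 5.35 in W303. The gap between the groups was wider than the spread within either, and the difference of 1.48 ± 0.067 (2.78-fold; limma, adjusted p = 4.36e-07) ranked 120 by size among all 5698 genes. Without cisplatin the signals were 6.25, 6.38 and 6.25 in W303-Δ*sky1*, against 5.77, 5.67 and 5.76 in W303, a difference of 0.56 ± 0.066 (adjusted p = 0.000348). In W303 the gene was lower with cisplatin, at 5.65, 5.57 and 5.54 against 5.87, 5.80 and 5.80 without it, by -0.24 ± 0.057 (adjusted p = 0.018). These groups did not overlap either, but the adjusted p was 0.0718 over all probe sets and up to 0.079 without W303 untreated replicate 3 or W303 cisplatin replicate 2 or 3.

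*BNA5* (YLR231C) encodes kynureninase, which cleaves hydroxykynurenine. It was the gene with the largest difference between the untreated strains, at 6.02, 6.10 and 5.91 in W303-Δ*sky1* against 5.19, 4.85 and 5.10 in W303. The lowest deletion array stood above the highest W303 array, and the difference was 0.96 ± 0.099 (1.95-fold; limma, adjusted p = 0.000187). Under cisplatin it was 0.90 ± 0.057 (1.86-fold, adjusted p = 2.34e-06), from 5.62, 5.70 and 5.58 in W303-Δ*sky1* against 4.76, 4.76 and 4.69 in W303. Cisplatin in W303 gave 5.04, 5.03 and 4.96, against 5.32, 4.96 and 5.13 without it. The lowest untreated array lay within the range of the treated ones and the other untreated arrays above it, with a difference of -0.12 and a 95% interval from -0.34 to 0.09 (adjusted p = 0.339).

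*BNA1* (YJR025C), the gene of 3-hydroxyanthranilate dioxygenase, read 8.57, 8.91 and 8.70 in untreated W303-Δ*sky1*, against 8.12, 8.13 and 8.08 in untreated W303. The deletion arrays were all higher and more spread, and the difference was 0.62 ± 0.090 (limma, adjusted p = 0.000903). Under cisplatin it was 0.35 ± 0.063 (adjusted p = 0.000968), from 8.17, 8.34 and 8.30 in W303-Δ*sky1* against 7.86, 7.96 and 7.93 in W303. Cisplatin lowered the signal in W303, with 7.91, 8.01 and 8.02 against 8.23, 8.32 and 8.25 without it. None of these treated arrays reached an untreated one, and the difference was -0.29 ± 0.058 (adjusted p = 0.00973).

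*BNA6* (YFR047C) encodes quinolinate phosphoribosyltransferase, the last step before the branches meet. In W303 its signal was 7.68, 7.70 and 7.69 with cisplatin, against 7.36, 7.38 and 7.44 without it. The treated replicates lay within a few hundredths of each other and above all untreated ones, by 0.30 ± 0.052 (limma, adjusted p = 0.00549). Between the treated strains W303-Δ*sky1* was higher, at 7.93, 7.91 and 7.96 against 7.54, 7.55 and 7.56 in W303 (0.38 ± 0.049, adjusted p = 0.000133). Between the untreated strains the groups were closer, at 7.58, 7.52 and 7.48 in W303-Δ*sky1* against 7.31, 7.34 and 7.40 in W303, by 0.18 ± 0.061 (adjusted p = 0.0415). That call did not hold with the replicate number as a block (adjusted p = 0.0578), over all probe sets (0.141), or with any 1 of the 6 arrays left out (0.0577 to 0.125).

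**Figure D2:**
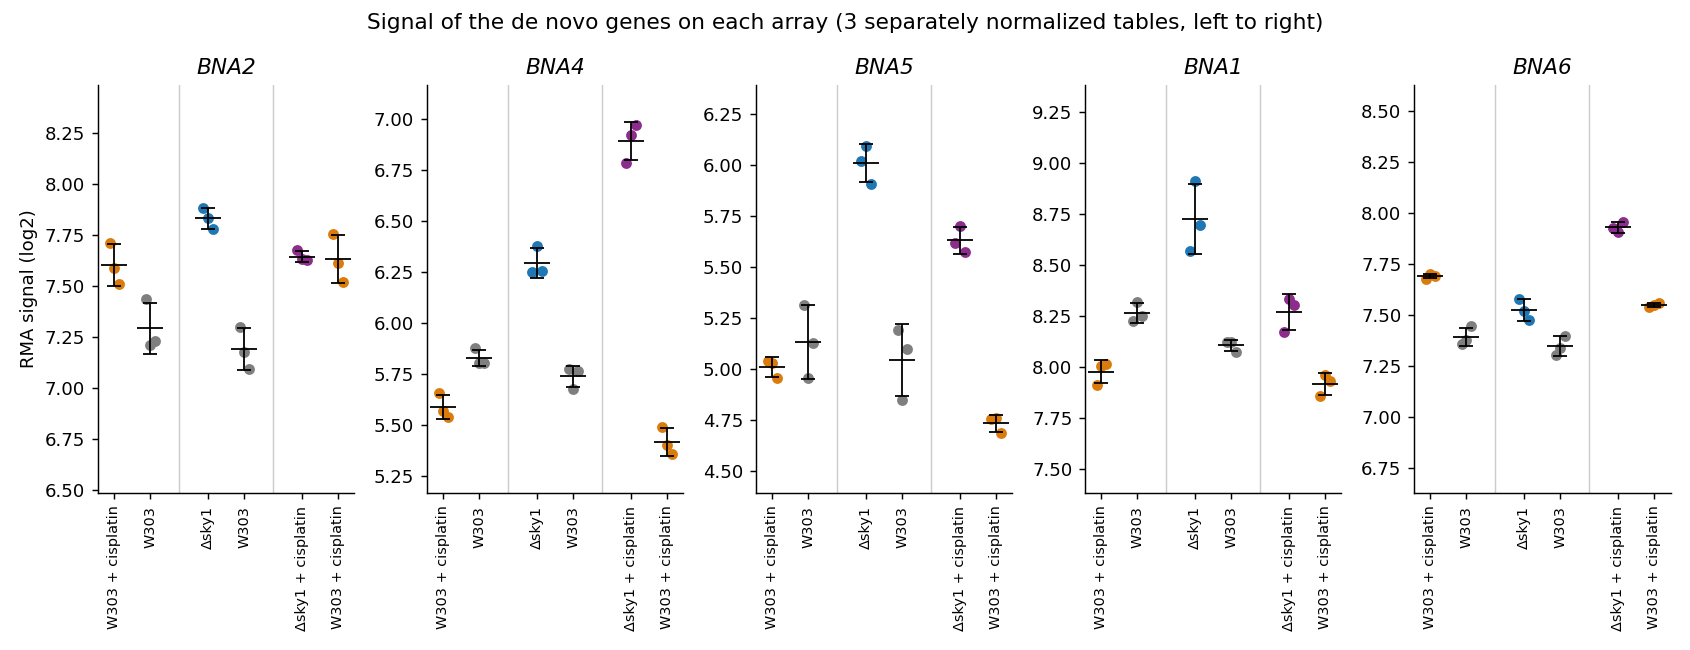
RMA signal (log2, vertical axis) of the 5 de novo genes on each array (points, replicates 1 to 3 from left to right within a group), with the mean and standard deviation of each group. The 3 blocks of a panel are the 3 separately normalized tables, and each panel spans about the same log2 range: *BNA4* stands highest in cisplatin-treated W303-Δ*sky1* (6.78 to 6.97), whereas *BNA2* overlaps between the treated strains.

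*PNC1* (YGL037C) encodes the nicotinamidase that turns nicotinamide into nicotinic acid. Between the untreated strains it did not pass, with 11.45, 11.56 and 11.57 in W303-Δ*sky1* against 11.45, 11.58 and 11.50 in W303. The groups overlapped over their whole range, and the difference was 0.01 with a 95% interval from -0.14 to 0.17 (limma, adjusted p = 0.893). In W303 it fell with cisplatin, to 11.14, 11.32 and 11.25 against 11.44, 11.58 and 11.53 without it (-0.28 ± 0.069, adjusted p = 0.0197). Under cisplatin W303-Δ*sky1* read 11.57, 11.49 and 11.49, against 11.12, 11.32 and 11.23 in W303, with no overlap and a difference of 0.30 ± 0.065 (adjusted p = 0.00318). The fall in W303 was not called over all probe sets (adjusted p = 0.0642) or without W303 untreated replicate 3 or W303 cisplatin replicate 1 or 3 (adjusted p up to 0.0679).

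*NPT1* (YOR209C), the gene of nicotinate phosphoribosyltransferase, was the only 1 of the 10 called lower in either comparison of the strains. Under cisplatin its signal was 8.01, 7.85 and 7.89 in W303-Δ*sky1*, against 8.59, 8.60 and 8.69 in W303. The treated deletion arrays lay below the treated W303 arrays by -0.71 ± 0.062 (1.64-fold lower; limma, adjusted p = 1.38e-05). This difference stood near the fold threshold, and at -0.68 after centring each array on its median it no longer reached 1.6-fold. In W303 the gene rose with cisplatin, to 8.65, 8.68 and 8.73 against 8.44, 8.09 and 8.44 without it (0.37 ± 0.099, adjusted p = 0.0289). W303 untreated replicate 2 was the lowest of its group, and the treated arrays were all higher than the untreated ones. Without cisplatin the strains overlapped, at 8.03, 8.16 and 8.32 in W303-Δ*sky1* against 8.31, 7.90 and 8.30 in W303, with a 95% interval of the difference from -0.29 to 0.29 (adjusted p = 0.99). The rise in W303 was not called over all probe sets (adjusted p = 0.0716) or without any 1 of the W303 cisplatin arrays (adjusted p up to 0.0953).

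*NRK1* (YNL129W) encodes nicotinamide riboside kinase. It read 5.55, 5.77 and 5.62 in untreated W303-Δ*sky1*, against 5.35, 5.29 and 5.36 in untreated W303, with no overlap and a difference of 0.31 ± 0.073 (limma, adjusted p = 0.00844). Under cisplatin the values were 5.21, 5.30 and 5.18 in W303-Δ*sky1* against 5.24, 5.38 and 5.41 in W303. These groups overlapped, and the difference of -0.11 had a 95% interval from -0.26 to 0.03 (adjusted p = 0.145). Without W303 cisplatin replicate 1, the lowest of its group, it was -0.17 (adjusted p = 0.0451). In W303 the treated arrays read 5.54, 5.60 and 5.60, all above the untreated ones at 5.47, 5.45 and 5.44, but the difference of 0.12 did not pass (adjusted p = 0.108).

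*NMA1* (YLR328W) and *NMA2* (YGR010W) each encode an adenylyltransferase that all branches share. *NMA1* read 7.41, 7.49 and 7.59 in untreated W303-Δ*sky1*, against 7.11, 7.16 and 7.14 in untreated W303 (0.36 ± 0.067; limma, adjusted p = 0.0028). Under cisplatin it read 7.45, 7.27 and 7.32 in W303-Δ*sky1*, against 6.91, 6.78 and 6.89 in W303 (0.49 ± 0.067, adjusted p = 0.000194). The deletion arrays were above the W303 arrays in both comparisons, without overlap. With cisplatin in W303 it fell, to 6.98, 6.95 and 6.96 against 7.25, 7.31 and 7.24 without it (-0.30 ± 0.052, adjusted p = 0.0051).

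*NMA2* was higher in W303-Δ*sky1* both with and without the drug. Its signal in untreated cells was 6.22, 5.90 and 6.05 in W303-Δ*sky1*, against 5.56, 5.27 and 5.51 in W303 (0.61 ± 0.11, 1.53-fold; limma, adjusted p = 0.00224). Replicate 2 was the lowest in both strains, and the groups did not overlap. In treated cells it was 6.06, 5.87 and 6.07 in W303-Δ*sky1*, against 5.40, 5.29 and 5.41 in W303 (0.64 ± 0.070, 1.56-fold, adjusted p = 5.35e-05). That difference reached the fold threshold of the study after cyclic loess normalization (0.72) and without W303-Δ*sky1* cisplatin replicate 2 (0.70). Cisplatin in W303 gave 5.52, 5.47 and 5.51 against 5.55, 5.28 and 5.51 without it. The groups overlapped, with a difference of 0.05 and a 95% interval from -0.13 to 0.24 (adjusted p = 0.638).

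**Figure D3:**
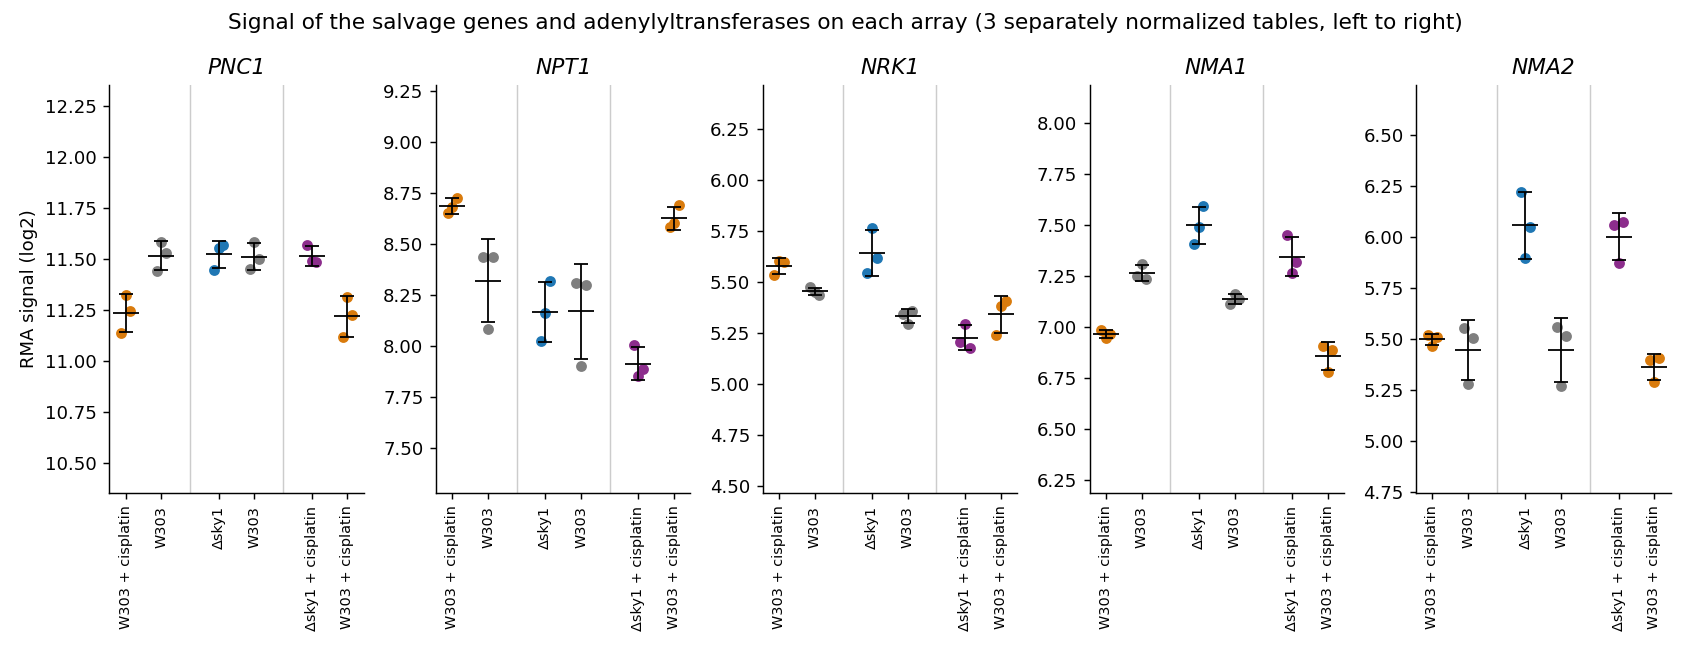
RMA signal (log2, vertical axis) of the salvage genes and the adenylyltransferase genes on each array, drawn as for the de novo genes. *NPT1* is lower in cisplatin-treated W303-Δ*sky1* (7.85 to 8.01) than in cisplatin-treated W303 (8.59 to 8.69), and *PNC1* overlaps between the untreated strains.

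The strain differences with and without cisplatin were set side by side without a test, because the tables were normalized separately. Regardless of sign, the difference under cisplatin was of larger size than that between untreated strains for 6 of the 10 genes. Strain differences were larger under cisplatin over all genes as well, with a median size of 0.33 against 0.25 without it. How many of all genes had a larger difference under cisplatin was not counted, and the count of 6 is not read as particular to these genes. Taken with its sign, the difference under cisplatin minus that between untreated strains was 0.92 log2 units for *BNA4*, -0.71 for *NPT1*, -0.63 for *BNA2* and -0.42 for *NRK1*, and -0.02 at the median of all genes. For *BNA5* it was -0.06, for *NMA2* 0.03 and for *NMA1* 0.13. The same W303 arrays differed between tables by up to -0.28 in the mean of a group for these genes, the widest shift being that of *BNA5* in treated W303, which limits how small a gap can be read.

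By the distance over the 3 log2 differences, the genes most like *BNA4* among all 5698 were *CUS2* (distance 0.15), YOR394C-A (0.16), *ROM1* (0.20), *USV1* (0.21) and *FHN1* (0.23). *CUS2* had differences of -0.22 with cisplatin in W303, 0.65 between the untreated strains and 1.36 between the treated strains. *BNA4* had -0.24, 0.56 and 1.48 in the same order of comparisons. No other gene of the NAD pathway was among these 5.

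Around the 10 genes, 37 neighbours of the pathway were examined as lists, covering the other synthesis enzymes, the riboside branch, transport, NAD kinases, consumers of NAD+, regulators of the *BNA* genes and the tryptophan supply. In untreated W303-Δ*sky1* 19 of the 37 were higher than in W303, beside 24.9% of all genes, and 9 lower, beside 27.4%, with a median of 0.22. Under cisplatin 18 were higher, beside 32.8% of all genes, and 14 lower, beside 37.8%, with a median of 0.06. With cisplatin in W303 5 rose, beside 13.2% of all genes, and 9 fell, beside 15.3%, with a median of -0.08. The counts of genes that were lower under cisplatin, lower in untreated W303-Δ*sky1* or higher with cisplatin in W303 were near those shares.

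Among the remaining synthesis enzymes, *BNA7* and *QNS1* went with the de novo genes in direction between the strains and *BNA3* did not. *BNA7* (YDR428C), the kynurenine formamidase gene, read 4.59, 4.58 and 4.30 in untreated W303-Δ*sky1*, against 3.68, 3.62 and 3.56 in W303 (0.87 ± 0.090; limma, adjusted p = 0.000191). Under cisplatin the difference was 0.89 ± 0.066 (adjusted p = 5.31e-06), and in W303 the gene fell by 0.50 with the drug (adjusted p = 0.00193). *QNS1* (YHR074W), whose product is the glutamine-dependent NAD+ synthetase, was higher in W303-Δ*sky1* by 0.76 without cisplatin (adjusted p = 0.000263) and by 0.69 with it (adjusted p = 1.78e-05). In W303 its difference with cisplatin was -0.02 (adjusted p = 0.813).

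*BNA3* (YJL060W), which encodes a kynurenine aminotransferase that draws kynurenine out of the pathway, had the largest change of all these genes. It read 9.66, 9.67 and 9.70 in W303 with cisplatin, against 7.59, 7.49 and 7.51 without it. The replicates of each group lay close together, and the rise of 2.15 ± 0.054 (4.43-fold; limma, adjusted p = 2.12e-07) ranked 21 by size among all genes. Under cisplatin W303-Δ*sky1* read 8.42, 8.29 and 8.31, against 9.63, 9.69 and 9.67 in W303, lower by -1.32 ± 0.057 (adjusted p = 3.63e-07). Between the untreated strains the difference was -0.19 (adjusted p = 0.0237), a call lost without W303 untreated replicate 1 or 3 or W303-Δ*sky1* untreated replicate 1 or 2, with an adjusted p of up to 0.0806, and over all probe sets (0.0994).

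In the branch that recovers nicotinamide riboside and mononucleotides, 4 of 7 genes were higher and 2 lower in W303-Δ*sky1* than in W303, both with and without cisplatin. Of all genes, 24.9% were higher and 27.4% lower without cisplatin, and 32.8% and 37.8% under it. The 2 lower genes are thus not more than these shares would give. Under cisplatin the nucleosidase gene *URH1* differed by 0.87 (limma, adjusted p = 3.69e-06), the phosphorylase gene *PNP1* by 0.72 (adjusted p = 5.54e-06), the nucleotidase gene *SDT1* by 0.58 (adjusted p = 2.18e-05) and *POF1* by 0.58 (adjusted p = 0.000631). Without the drug these differences were 1.07, 0.80, 0.74 and 0.41 in the same order of genes, all called. The largest difference of the list under cisplatin went the other way. The acid phosphatase gene *PHO5* was lower by -1.11 under cisplatin (adjusted p = 9.08e-07) and by -1.04 without it (adjusted p = 9.45e-05), and it fell in W303 with the drug by 1.06 (adjusted p = 8.71e-05). The alkaline phosphatase gene *PHO8* was lower by -0.45 under cisplatin (adjusted p = 5.75e-05) and by -0.23 without it (adjusted p = 0.0169), and the second call was lost over all probe sets (0.0689) and without W303 untreated replicate 3 or W303-Δ*sky1* untreated replicate 1 (up to 0.061).

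The 5 transporter genes did not share a direction. In W303-Δ*sky1* 2 were higher and 1 lower without cisplatin, beside 24.9% and 27.4% of all genes. Under cisplatin 2 were higher and 2 lower, beside 32.8% and 37.8%. *TNA1*, the nicotinic acid permease gene, was lower in W303-Δ*sky1*, at 7.76, 7.78 and 7.68 against 8.29, 8.40 and 8.38 in W303 without cisplatin (-0.62 ± 0.064; limma, adjusted p = 0.000199), and by -0.75 with it (adjusted p = 0.000123). *NRT1*, the nicotinamide riboside transporter gene, was higher by 0.64 (adjusted p = 0.00013) and, under cisplatin, by 0.71 (adjusted p = 1.42e-05). The vacuolar nucleoside transporter gene *FUN26* was higher by 0.47 (adjusted p = 0.00239) and, under cisplatin, by 0.69 (adjusted p = 3.97e-05). *YIA6* was lower under cisplatin, by -0.15 (adjusted p = 0.0385), and *YEA6* was not called in any comparison. These last genes, *YIA6* and *YEA6*, were not followed through the other ways of processing. With cisplatin in W303 only *NRT1* of this list was called, lower by -0.35 (adjusted p = 0.00429).

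Of the NAD kinase genes, which make NADP+ from NAD+, *YEF1* was higher in W303-Δ*sky1* under cisplatin, at 5.75, 5.55 and 5.58 against 4.44, 4.05 and 3.93 in W303 (1.48 ± 0.12; limma, adjusted p = 1.11e-05). Without the drug it was higher by 0.95 (adjusted p = 0.000247). *UTR1* was higher in W303-Δ*sky1* by 0.32 without cisplatin (adjusted p = 0.00588) and by 0.30 under it (adjusted p = 0.00527). It was not followed through the other ways of processing. Of the 3 kinase genes, 2 were thus higher and 0 lower in both comparisons of the strains. Of all genes, 24.9% were higher and 27.4% lower without cisplatin, and 32.8% and 37.8% under it. *POS5*, the mitochondrial kinase gene, rose in W303 with cisplatin by 0.54 (adjusted p = 0.00137). Between the strains it did not pass, with differences of -0.08 without cisplatin and -0.11 under it. The difference under cisplatin was -0.26 without W303-Δ*sky1* cisplatin replicate 1 (adjusted p = 0.00769), the highest of its group.

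The genes of the Hst1 complex did not move as one. *HST1* was lower in W303-Δ*sky1* by -0.23 without cisplatin (limma, adjusted p = 0.02) and by -0.25 under it (adjusted p = 0.00671). *SUM1*, which encodes the DNA-binding subunit, was higher by 0.26 (adjusted p = 0.037) and by 0.17 (adjusted p = 0.0142) in the same comparisons. *RFM1*, which encodes the protein that links Hst1 to Sum1, was lower under cisplatin by -0.56 (adjusted p = 0.000271) and rose with cisplatin in W303 by 0.37 (adjusted p = 0.00397). Between the untreated strains it differed by -0.15 (adjusted p = 0.155), and by -0.21 without W303 untreated replicate 2 (adjusted p = 0.0485). The untreated calls of *HST1* and *SUM1* were near the threshold. That of *HST1* was lost without W303 untreated replicate 3 or W303-Δ*sky1* untreated replicate 1 or 2 (adjusted p up to 0.0707), and that of *SUM1* without any array but W303-Δ*sky1* untreated replicate 1 (up to 0.0876). Without W303-Δ*sky1* untreated replicate 3, the highest of its group, the difference of *SUM1* was 0.17. Over all probe sets the adjusted p was 0.0746 for *HST1* and 0.0979 for *SUM1* without cisplatin, and 0.0603 for *SUM1* under it.

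The genes of the activators Bas1 and Pho2, which act on adenine and phosphate genes as well, were lower in W303-Δ*sky1*. *BAS1* read 6.63, 6.59 and 6.65 in untreated W303-Δ*sky1*, against 6.89, 7.31 and 7.13 in W303 (-0.49 ± 0.10; limma, adjusted p = 0.00556). *PHO2* was lower by -0.44 (adjusted p = 0.000597) and, under cisplatin, by -0.50 (adjusted p = 0.000168). Under cisplatin *BAS1* differed by -0.20 (adjusted p = 0.0288), which was not called without W303 cisplatin replicate 1 or W303-Δ*sky1* cisplatin replicate 2 or 3 (adjusted p up to 0.0937), or over all probe sets (0.0813).

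Of the 6 genes whose products hydrolyse or consume NAD+, *SIR2*, *HST1* and *HST4* were lower in W303-Δ*sky1* and *HST2*, *HST3* and *NPY1* higher, both with and without cisplatin. The shares of all genes were 24.9% higher and 27.4% lower without cisplatin, and 32.8% and 37.8% under it. *SIR2*, the NAD+-dependent deacetylase gene of silent chromatin, was lower by -0.43 without cisplatin (limma, adjusted p = 0.00142) and by -0.21 under it (adjusted p = 0.0105), and it fell in W303 with the drug by 0.34 (adjusted p = 0.00549). *HST3*, of the same deacetylase family, read 5.59, 5.27 and 5.35 in treated W303-Δ*sky1* against 4.60, 4.48 and 4.47 in treated W303, higher by 0.89 ± 0.086 (adjusted p = 2.58e-05), and was higher by 0.48 without cisplatin (adjusted p = 0.0231). *HST2* was higher by 0.45 under cisplatin (adjusted p = 0.000192) and by 0.22 without it (adjusted p = 0.0253). *HST4* was lower by -0.52 under cisplatin (adjusted p = 8.31e-05) and by -0.55 without it (adjusted p = 0.0183). *NPY1*, the NADH pyrophosphatase gene, was higher by 0.54 without cisplatin (adjusted p = 0.000251) and by 0.18 under it (adjusted p = 0.0196). The untreated calls of *HST2*, *HST3* and *HST4* and the treated call of *NPY1* were each lost without single arrays. For *HST2* these were any W303 untreated replicate or W303-Δ*sky1* untreated replicate 2 (adjusted p up to 0.084), for *HST3* W303 untreated replicate 3 or any W303-Δ*sky1* untreated replicate (up to 0.0677), and for *HST4* W303 untreated replicate 3 or W303-Δ*sky1* untreated replicate 1 or 3 (up to 0.0635). For *NPY1* they were W303 cisplatin replicate 2 or 3 or W303-Δ*sky1* cisplatin replicate 1 (up to 0.0672). Over all probe sets the adjusted p was 0.0905 for *HST2*, 0.0533 for *HST3* and 0.0678 for *NPY1* in those comparisons.

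On the side of tryptophan, *TAT2*, a tryptophan permease gene, fell in W303 with cisplatin, to 6.75, 6.54 and 6.68 against 7.13, 7.45 and 7.19 without it (-0.60 ± 0.095, limma, adjusted p = 0.0035). Uptake of tryptophan was not measured. In W303-Δ*sky1* it was higher than in W303 by 0.43 without the drug (adjusted p = 0.006) and by 0.83 under it (adjusted p = 9.62e-06). *TRP3*, of tryptophan synthesis, was higher in W303-Δ*sky1* by 0.65 without cisplatin (adjusted p = 0.000445) and by 0.19 under it (adjusted p = 0.0101). The largest strain differences of the list were those of *ARO4*, higher by 0.93 without cisplatin and by 1.01 under it. Called lower under cisplatin were *ARO3* (-0.48), *TRP5* (-0.37) and *ARO2* (-0.31, with overlapping groups). *ARO2*, *ARO3*, *ARO4* and *TRP5* were not followed through the other ways of processing. Of the 9 genes of this list, 5 were higher and 0 lower in untreated W303-Δ*sky1*, where 24.9% and 27.4% of all genes were. Under cisplatin 4 were higher and 3 lower, beside 32.8% and 37.8% of all genes, and with cisplatin in W303 1 rose and 3 fell, beside 13.2% and 15.3%.

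**Figure D4:**
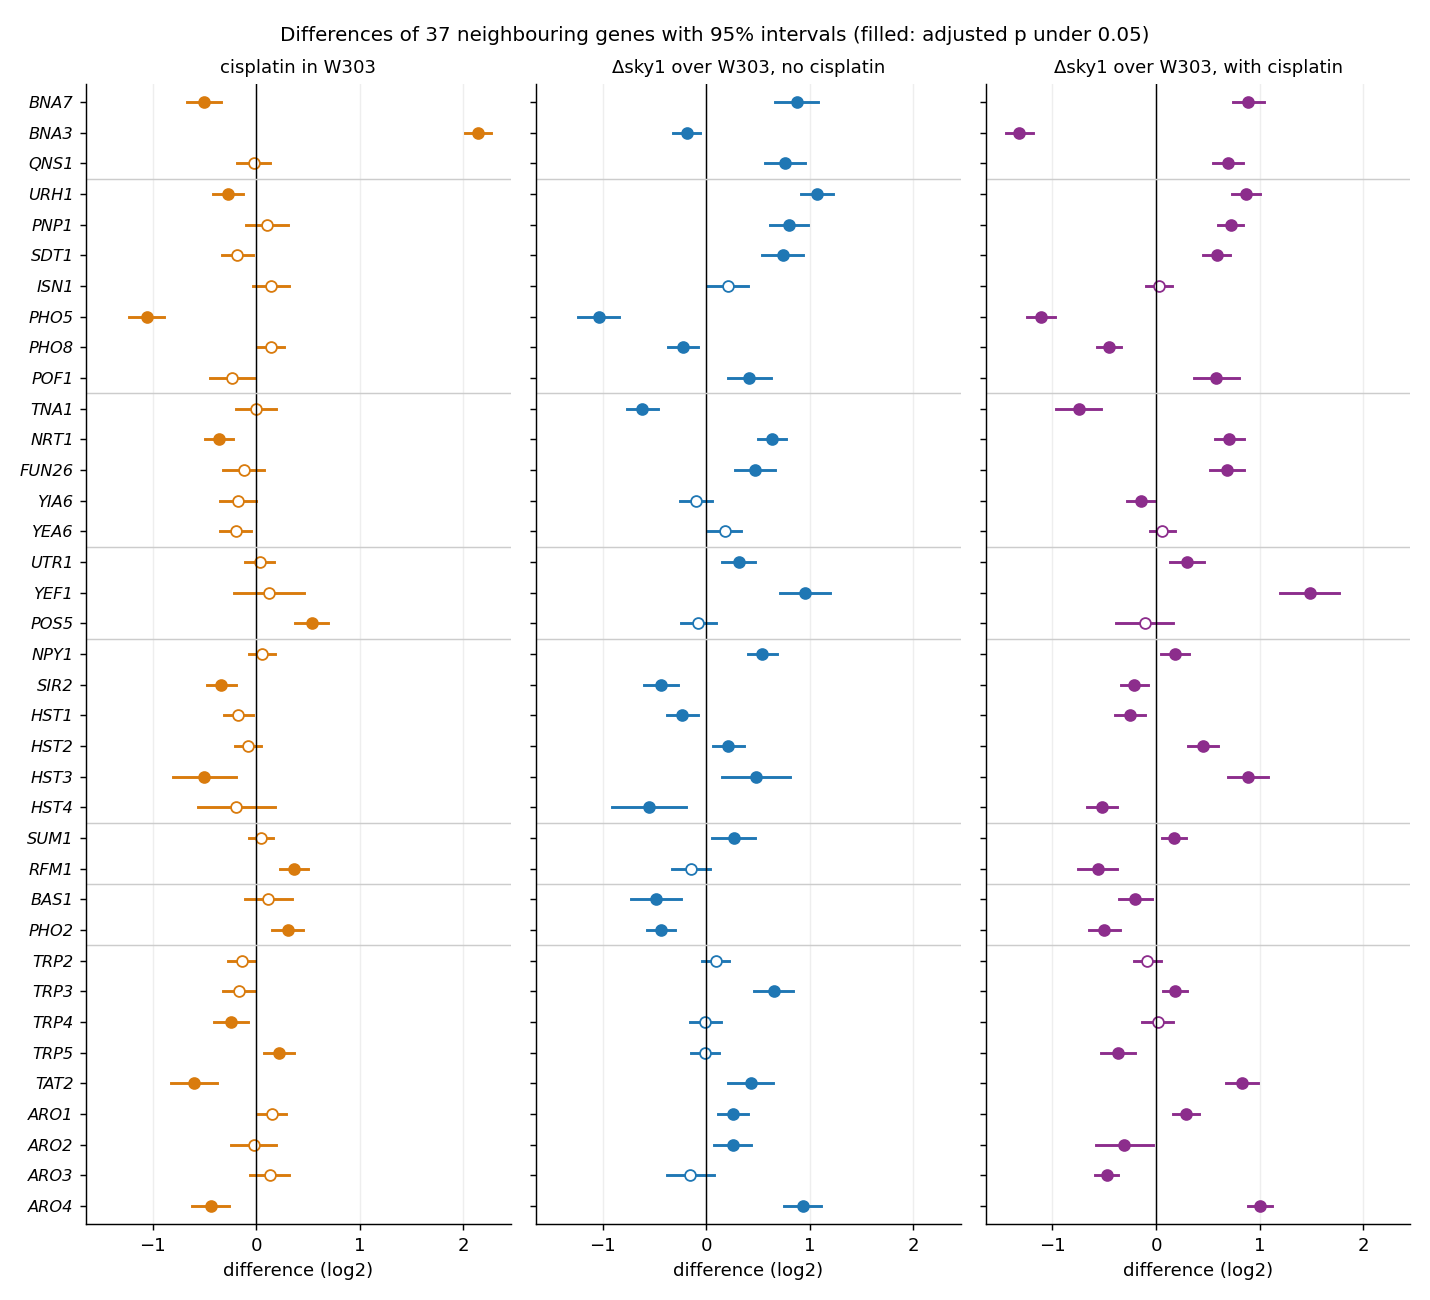
Log2 differences of the 37 neighbouring genes (points, horizontal axis) with 95% intervals (lines) in the 3 comparisons, grouped from top to bottom as other synthesis enzymes, riboside and mononucleotide salvage, transport, NAD kinases, consumers, repressors, activators and tryptophan supply, and filled where the adjusted p from limma was under 0.05. *BNA3* lies at 2.15 with cisplatin in W303 and at -1.32 between the treated strains, while *BNA7* lies near 0.9 between the strains in both panels.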

How the data were processed

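The log2 values were deposited by the authors after RMA normalization of the 6 arrays of each comparison. Their p-values, adjusted p-values and fold changes were not used. Of 10715 probe sets, 5714 are annotated to *S. cerevisiae*, and 1 per gene was kept, that with the highest mean, which leaves 5698 genes. Each comparison was tested within its table by limma 3.58.1 in R 4.3.3 (lmFit and eBayes, 3 arrays against 3), adjusted by Benjamini-Hochberg over the 5698 genes. The fold threshold was 1.6-fold (0.68 log2 units) with an unadjusted p under 0.01. The fit was tested on simulated data with 200 changed genes. The number of arrays limits the precision.

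The 10 genes, the 37 neighbours and the comparisons were chosen with earlier results of these data known. The text names the 10 genes, neighbours from the fixed lists, *SKY1*, and the 5 genes nearest to the gene with the largest difference. *LOH1* is named only for its title, chosen after the titles were read.

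Equal replicate numbers were taken to pair the samples, but the main fits did not use this pairing. Deviations from the group means correlated with r of 0.21 to 0.44 for equal numbers and -0.36 to 0.13 for different ones. Because the deviations of a group cancel out, the values for different numbers are not independent of those for equal ones. The methods divide each culture of a strain into control and treated aliquots, and between the strains the pairing comes from these correlations alone. The fit with a replicate block was run as an alternative, beside other probe set filters, normalizations, variance models and thresholds, and each array left out. No sequences are shown.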

Additional observations from a re-analysis of the deposited data

How the results depend on the processing

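With cisplatin in W303, 3 of the 10 genes were higher and 4 lower, and these became 1 and 2 over all probe sets and 1 and 2 at an adjusted p under 0.01. With single arrays left out, the count of higher genes ran from 1 (without W303 cisplatin replicate 1 or 2) to 3, and that of lower genes from 2 (without W303 untreated replicate 3 or W303 cisplatin replicate 3) to 4. Between the untreated strains, 1 gene past 1.6-fold became 0 at a threshold of 2-fold, and 1 to 2 with arrays left out. The added gene was *BNA2* without W303 untreated replicate 1, *BNA1* without W303-Δ*sky1* untreated replicate 1 and *NMA2* without W303-Δ*sky1* untreated replicate 2. Between the treated strains, 3 genes past 1.6-fold became 1 at 2-fold, and the count of lower genes ran from 1 to 2, the second being *NRK1* without W303 cisplatin replicate 1. Apart from the stricter thresholds, the causes were not tested. The shares of all genes were not counted over all probe sets, at the stricter thresholds or with arrays left out. The changes in these counts are therefore not read as particular to the 10 genes. Over all probe sets the fit itself was repeated, so that the variance estimates changed along with the number of tests. The replicate block changed 1 call of the 10 genes, *BNA6* between the untreated strains (adjusted p = 0.0578). Among the other named genes that were followed, it changed those of YOR394C-A and *POF1* with cisplatin in W303 (adjusted p = 0.0328 and 0.0219 in the block).

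Values reversed in 11 cases for the 10 genes and in 10 for the other named genes that were followed, none of them called. With cisplatin in W303 and single arrays left out, *NMA2* lay between -0.030 and 0.11, *QNS1* between -0.087 and 0.020, *TNA1* between -0.084 and 0.049 (0.019 after cyclic loess), *YEF1* between -0.017 and 0.22, *HST4* between -0.35 and 0.0041, *USV1* between -0.095 and 0.035 and *FHN1* between -0.15 and 0.046. Between the untreated strains *PNC1* lay between -0.018 and 0.051 and *NPT1* between -0.14 and 0.070 (0.012 after median centring). Between the treated strains *BNA2* lay between -0.041 and 0.076. Of 420 values of the 10 genes under alternatives, 383 kept direction and call.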
